A study of Mus musculus with 9 samples.

Results

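The mitochondrial ribosomal protein genes were examined in C2C12 cells, a mouse myoblast line, after 48 h. A gene was taken when its identifier in the deposited table mapped to a symbol that starts with Mrpl or Mrps, was not a pseudogene symbol ending in -ps, and had at least 1 FPKM (fragments per kilobase of transcript, scaled to the mapped fragments of the library) in at least 3 of 9 libraries. All 78 genes with such a symbol passed, out of 54307 genes in the table and 13674 that passed the same FPKM filter. There were 3 groups of 3 libraries. The HL group received 25 mmol/L glucose and 200 nmol/L liraglutide, an acylated analogue of the gut hormone GLP-1. The H group received 25 mmol/L glucose alone, and the NC group was the control, whose glucose concentration the labels do not give. H was set against NC to ask what high glucose changed, and HL against H to ask what liraglutide changed under high glucose. The study used a mannitol group as a negative control in its other assays, but the sequenced groups do not include it. In H against NC, glucose and the osmotic load it adds therefore cannot be told apart. All cells were of 1 line. The study describes its experiments in general as independently repeated but does not tie this to the sequenced libraries, and the labels name no separate cultures. The tests therefore speak only to the variation among these 9 libraries, part of which may be technical.

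The mitochondrial ribosome translates the few mRNAs that mitochondrial DNA encodes, which code for subunits of the oxidative phosphorylation complexes. Its rRNAs come from mitochondrial DNA, and all of its proteins are encoded in the nucleus, made on cytosolic ribosomes and imported. Many of them descend from bacterial ribosomal proteins, and others were added in mitochondria. Muscle cells need this machinery to build their respiratory chain. Of the 78 members, 49 carry an Mrpl symbol and 29 an Mrps symbol. By their place in the ribosome, 51 belong to the large subunit, which joins the amino acids, and 26 to the small subunit, which reads the mRNA. Mrps18a and Mrps30 sit in the large subunit despite their symbols. Mrps36 is in neither, since its protein is a subunit of the 2-oxoglutarate dehydrogenase complex. By origin, 46 members were classed as having a bacterial homolog and 31 as specific to mitochondria. Mrps18a and Mrps18b were counted among the 31, although they are paralogs of Mrps18c, which is among the 46.

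The libraries held an estimated 17.2 to 23.2 M fragments, read from the smallest steps between FPKM values. The 7 myoblast markers were all expressed, with a summed level of 3189 to 3239 FPKM in HL, 2228 to 2314 FPKM in H and 2610 to 2640 FPKM in NC. At an adjusted p under 0.05, 5 were lower and 2 higher in H than in NC (all tested genes: 33% and 27.1%). In HL against H, 6 were higher and 0 lower (all tested genes: 26.7% and 21.7%). Of 6 macrophage markers, Csf1r and Cd68 were tested and both rose in H compared with NC. Csf1r, a receptor for macrophage growth factors, had 0.25 to 0.28 FPKM in HL, 91.5 to 149.1 FPKM in H and 0.31 to 0.69 FPKM in NC. The summed level of this list was 19.3 to 20.4 FPKM in HL, 106 to 169 FPKM in H and 5.39 to 6.65 FPKM in NC. Adgre1, Itgam and Ptprc of the same list stayed between 0 and 0.076 FPKM in every library. The 3 tested markers of differentiated muscle (Acta1, Myog and Tnnt1) were higher in HL than in H, and the 6 genes of that list summed to 22.1 to 23.4 FPKM in HL, 7.26 to 9.56 FPKM in H and 10.1 to 10.8 FPKM in NC. The part of these markers in the results was not tested. In whole-culture RNA, fewer cells of a type and less RNA per cell cannot be told apart.

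Most mitochondrial ribosomal protein genes were lower under high glucose. Compared with the NC group, 55 of the 78 members were down-regulated in the H group and 6 were up-regulated at an adjusted p under 0.05 (limma on log2(FPKM + 0.1), adjusted by the Benjamini-Hochberg method over all tested genes). Of all tested genes, 33% were lower and 27.1% higher by the same rule. The median log2 fold change was -0.43 over the members and -0.04 over all tested genes. The changes were small. When an absolute log2 fold change over 1 was also required, only Mrpl42 was down-regulated and no member was up-regulated, with 5.75% of all tested genes lower and 10.3% higher by that rule. At an unadjusted p the fold rule gave the same counts of 1 and 0. That call of Mrpl42 was lost when H replicate 1 was left out. Summed over the members, the H libraries had 3796, 3407 and 3647 FPKM and the NC libraries had 4751, 4772 and 4763 FPKM. The H libraries were all lower, and the H sum averaged 0.76 of the NC sum (two-sided exact permutation test, p = 0.1, the smallest p that 3 against 3 libraries can give).

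The total FPKM differed between the groups, with 698627 to 731929 in HL, 649733 to 683362 in H and 757000 to 765681 in NC, and the comparison depends in part on this. When each library was rescaled to TPM, a scale on which every library has the same total, the median of all tested genes in H against NC moved to 0.15. The members then had 40 lower and 11 higher calls, a median of -0.24, and an H sum of 0.868 of the NC sum. On that scale 2858 of the 13674 tested genes were lower in H than in NC. The count of all tested genes higher on that scale is not given here, so the 11 higher members cannot be set against it. The percentages of all tested genes called higher or lower in this text hold for the FPKM scale, and not for counts on the TPM scale. The members as a list were lower on both scales. Rescaling multiplies all genes of a library by 1 factor, so it leaves the distance between the members and the median gene nearly as it was and does not test it.

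**Figure D1:**
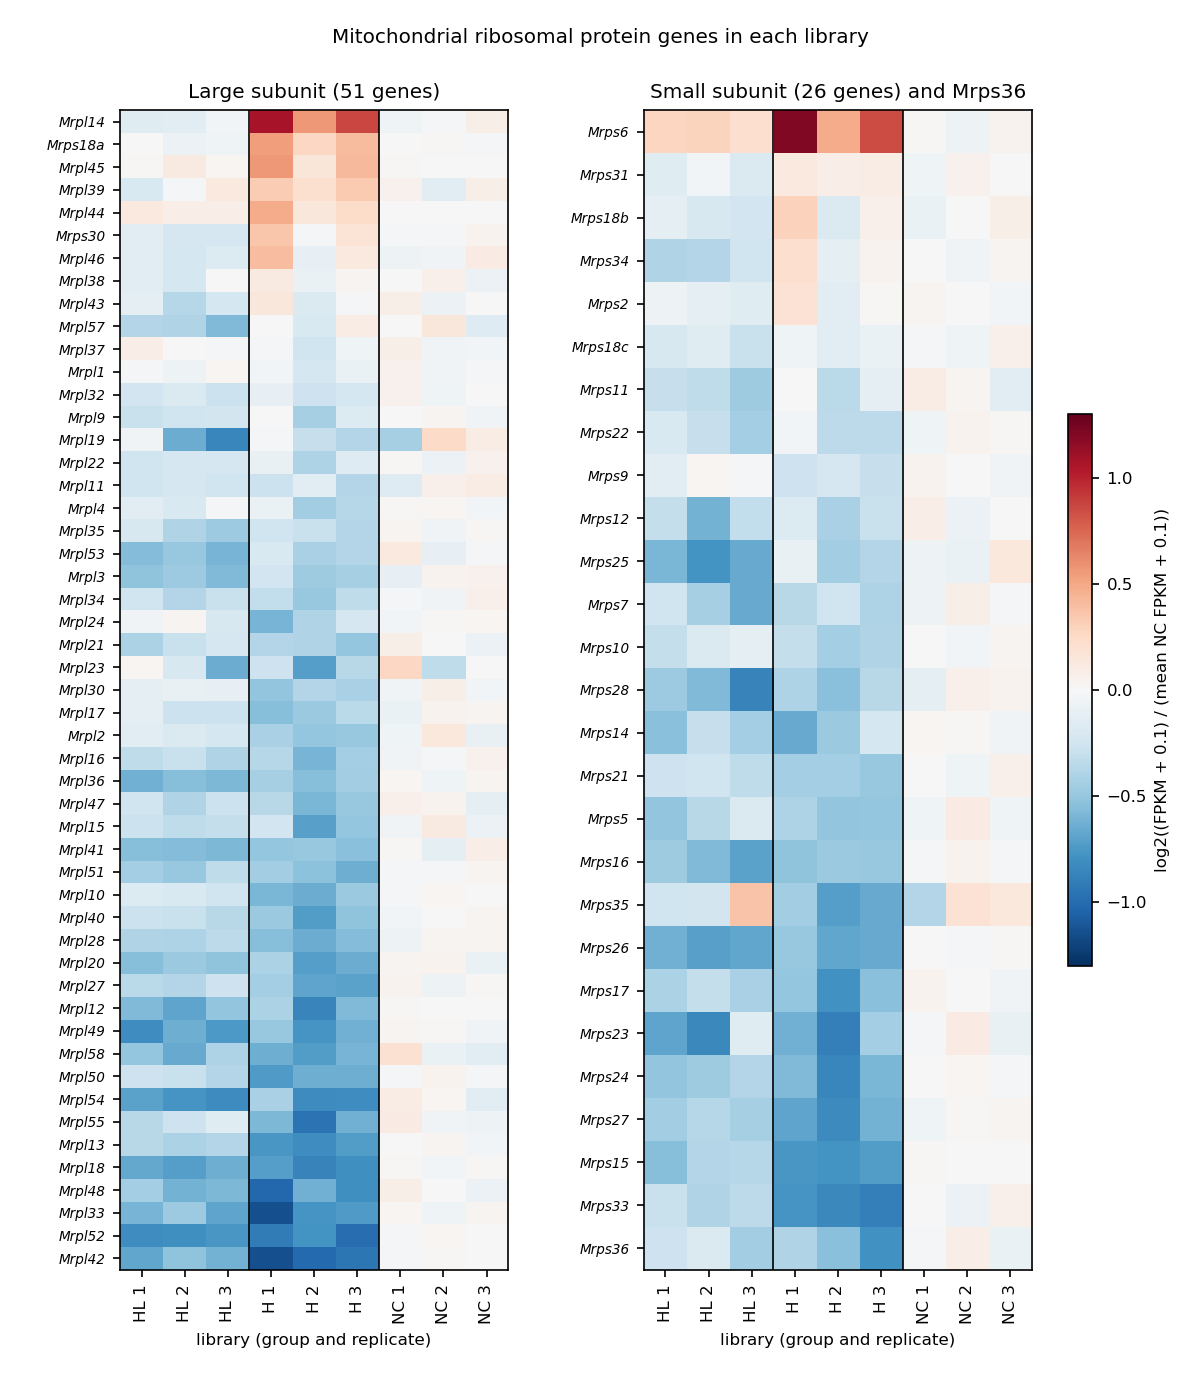
Heat map of the 78 members (rows, sorted by the H against NC change within each subunit) in the 9 libraries (columns, HL, H and NC), coloured by the log2 ratio of FPKM + 0.1 to the NC mean. Most rows are blue in the 3 H columns, 6 members from Mrpl14 to Mrpl44 and Mrps6 are red there, and most rows stay blue in the HL columns.

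The largest falls were in members of both subunits. Mrpl42, a large subunit protein specific to mitochondria, had 94.5, 103 and 108 FPKM in H, against 206, 211 and 209 FPKM in NC (log2 fold change -1.03, SE 0.062, adjusted p = 1.28e-06). Mrpl52, also specific to the mitochondrial large subunit, had 116, 127 and 109 FPKM in H, against 214, 221 and 219 FPKM in NC (-0.89, adjusted p = 1.83e-06). Mrpl33, the homolog of bacterial L33 and the most abundant member, had 172, 222 and 227 FPKM in H, against 385, 363 and 386 FPKM in NC (-0.88, adjusted p = 7.07e-05). In each of these genes every H library lay far below every NC library. Mrps33, of the small subunit, had 31.4, 29.9 and 28.8 FPKM in H, against 53.5, 50.7 and 56.0 FPKM in NC (-0.83). Mrpl48 (-0.81), Mrpl18 (-0.79), Mrpl13 (-0.76) and Mrps15 (-0.75) completed the 8 largest falls. Groups without overlap were part of the rule that picked these genes, apart from Mrpl42. Without overlap, 55 members (70.5%) and 35.7% of all tested genes were lower in H than in NC. Mrpl12, which forms the flexible stalk that recruits translation factors, had 70.3, 51.3 and 62.7 FPKM in H, against 94.0, 92.9 and 92.9 FPKM in NC (-0.61, adjusted p = 0.000646).

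The 6 up-regulated members stood against this pattern. Mrps6, the homolog of bacterial S6 in the small subunit, had 204, 124 and 160 FPKM in H, against 89.6, 84.6 and 91.5 FPKM in NC (0.85, SE 0.145, adjusted p = 0.000769). Mrpl14, the homolog of bacterial L14, which lies where the subunits meet, had 232, 163 and 202 FPKM in H, against 106, 108 and 117 FPKM in NC (0.83, SE 0.111, adjusted p = 0.000168). Each H library was above each NC library in both genes, but the H libraries were widely spread, with replicate 2 the lowest. Mrps18a had 67.3, 55.3 and 61.2 FPKM in H, against 45.9, 46.4 and 45.6 FPKM in NC (0.41, adjusted p = 0.00079). Mrpl45 (0.38), Mrpl39 (0.30) and Mrpl44 (0.29) were also higher. The rule that named these 6 genes asked for groups without overlap, and 29.7% of all tested genes were higher in that way. Mrpl45 helps to hold the ribosome at the inner membrane, where its products are inserted. The call of Mrpl39 was lost when H replicate 1, H replicate 3 or NC replicate 2 was left out (adjusted p = 0.0514, 0.0638 and 0.0837). It was also lost in limma with weights for the variance of each group (adjusted p = 0.078).

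**Figure D2:**
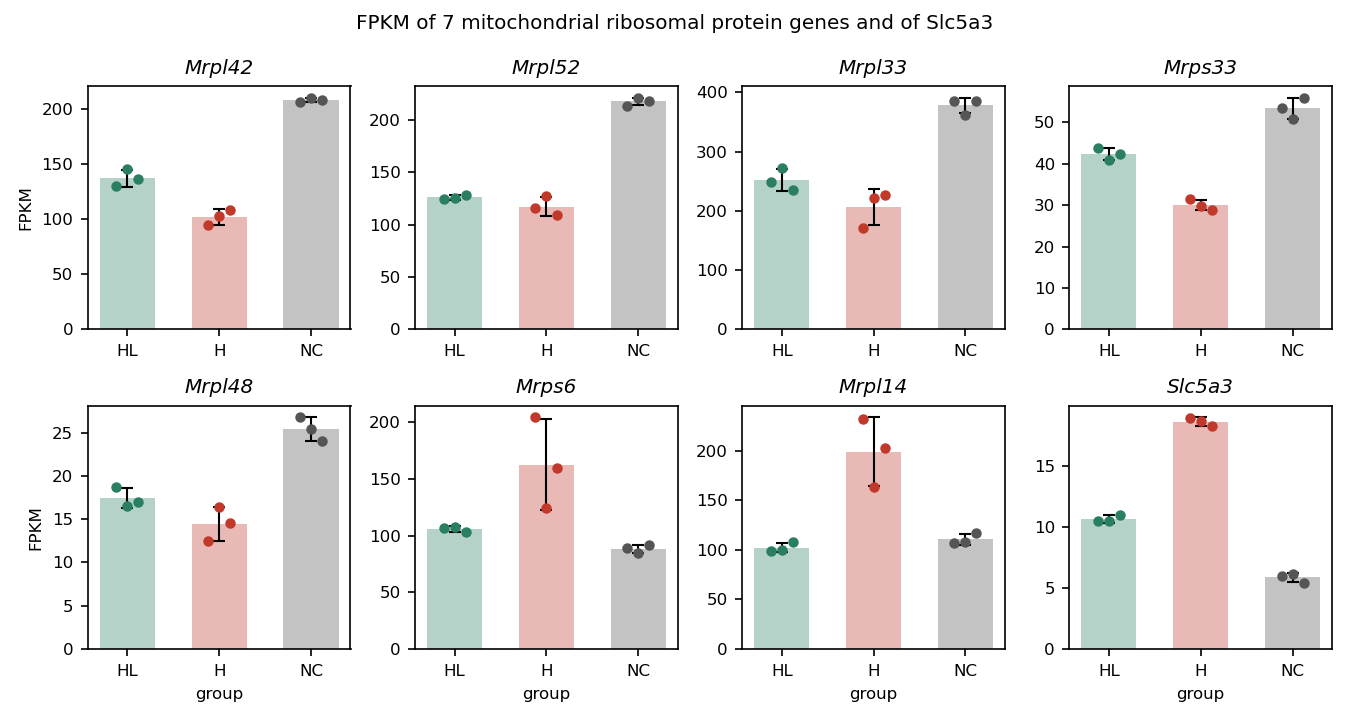
FPKM of 7 members and of Slc5a3 in the HL, H and NC libraries. Points are libraries, bars are group means and error bars are SD (n = 3). Mrpl42, Mrpl52, Mrpl33, Mrps33 and Mrpl48 are lowest in H and highest in NC. Mrps6, Mrpl14 and Slc5a3 are highest in H.

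The rise of Mrps6 coincided with that of a gene inside it. In the mouse annotation (GENCODE M21) Slc5a3, which encodes a myo-inositol transporter known to respond to osmotic stress, lies within Mrps6 on the same strand, the starts are 52 bases apart and up to 159 exon bases are shared. Slc5a3 had 18.9, 18.7 and 18.2 FPKM in H, against 6.02, 6.12 and 5.45 FPKM in NC (1.65, adjusted p = 2e-07). In HL it had 10.5, 10.5 and 11.0 FPKM, lower than in H (-0.80, adjusted p = 2.87e-05). The HL libraries lay between the others for both genes. Reads from the shared exon cannot be told apart between them. Mrpl23, the lowest member at 2.92 to 5.87 FPKM, is uncertain too, because the near-identical copy Mrpl23-ps1 had 33.6, 42.9 and 39.2 FPKM in H, against 80.5, 85.9 and 81.4 FPKM in NC (-1.10, adjusted p = 8.75e-06). No member lay outside the FPKM filter, and Mrpl23 was the one closest to it. The exons of 23 members overlap those of another protein-coding gene. Among the 55 without such an overlap, 42 were lower and 3 higher in H than in NC.

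The RefSeq promoters of some of these genes (build GRCm38.p6) are printed to show the letters that the changed genes carry near their start. Each run holds 150 bases before and 30 after the start, 5′ to 3′ on the strand of the gene. Capitals mark the letters of a motif searched for on both strands, for the factors NRF1 (GCGC, any base, TGCGC), ETS (CCGGAAGT) and YY1 (AANATGGCG), which are known regulators of nuclear genes for mitochondrial proteins, and for the E-box (CACGTG) and TATAAA. The letters of different motifs do not overlap in these runs.
Mrps6, chr16:92058186-92058365, plus strand: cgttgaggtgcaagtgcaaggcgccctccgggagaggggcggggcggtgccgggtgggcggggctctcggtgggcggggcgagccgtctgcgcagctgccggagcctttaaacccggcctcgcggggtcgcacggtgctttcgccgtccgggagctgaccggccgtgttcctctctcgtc
Mrpl14, chr17:45686199-45686378, plus strand: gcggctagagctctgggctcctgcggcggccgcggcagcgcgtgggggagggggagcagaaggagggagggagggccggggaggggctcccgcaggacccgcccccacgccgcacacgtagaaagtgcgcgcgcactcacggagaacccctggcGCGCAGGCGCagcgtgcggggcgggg
Mrps18a, chr17:46110854-46111033, plus strand: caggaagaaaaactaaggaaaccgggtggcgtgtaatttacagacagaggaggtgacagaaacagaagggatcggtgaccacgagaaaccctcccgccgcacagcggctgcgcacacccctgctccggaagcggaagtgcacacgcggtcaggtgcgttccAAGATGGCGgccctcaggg
Mrpl52, chr14:54426759-54426938, plus strand: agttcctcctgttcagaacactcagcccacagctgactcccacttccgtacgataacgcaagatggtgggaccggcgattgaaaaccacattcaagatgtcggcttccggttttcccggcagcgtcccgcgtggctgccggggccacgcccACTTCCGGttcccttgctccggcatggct
Mrpl33, chr5:31613801-31613980, plus strand: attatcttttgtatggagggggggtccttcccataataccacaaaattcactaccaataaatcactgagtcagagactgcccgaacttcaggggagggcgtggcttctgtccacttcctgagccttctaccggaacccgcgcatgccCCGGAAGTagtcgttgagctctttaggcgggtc
The run of Mrps6 held none of the 5 motifs, and its 300-base window (250 bases before to 50 after the start) shares 286 bases with that of Slc5a3. In Mrpl14 the NRF1 letters begin at base 5 after the start, read on the other strand. In Mrps18a the YY1 letters begin at base 12. In Mrpl52 the ETS letters begin at base 2, on the other strand, and in Mrpl33 they begin 3 bases before the start.

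A RefSeq promoter window was found for 69 of the 78 members. NRF1 letters were in 13 of the 69 (18.8%), against 11.7% of the 9724 tested genes with a window and 5.19% of all 27025. ETS letters were in 12 members (17.4%), against 9.37% of tested genes and 4.31% of all genes. YY1 letters were in 11 members (15.9%), against 6.21% and 2.76%. At least 1 of these 3 was in 33 members (47.8%), against 24.6% and 11.2%. The E-box was in 5 members (7.25%), against 11.6% of tested and 8.09% of all genes, and TATAAA was also in 5, against 8.97% and 15.7%. A match of letters is a description and not a binding site. Of the 13 members with NRF1 letters, 7 were lower and 4 higher in H than in NC, and the 4 were Mrpl14, Mrpl39, Mrpl44 and Mrpl45. Their median log2 fold change was -0.20. Of the 12 with ETS letters, 9 were lower and none higher (median -0.61). Of the 11 with YY1 letters, 7 were lower and 1 higher (median -0.48), and of the 36 with none of these 3, 29 were lower and 1 higher (median -0.46). These are counts from 1 comparison, and the classes were not tested against each other. Of the factors themselves, Nrf1 mRNA fell by 0.44 on the log2 scale in H (adjusted p = 0.00528), a call that was lost on the TPM scale (-0.25, adjusted p = 0.0638). The ETS-family gene Gabpa rose by 0.35 (adjusted p = 0.0005), and the value for Yy1 was -0.05 (adjusted p = 0.724). Ppargc1a, a coactivator known to raise mitochondrial gene expression, had 3.96, 2.08 and 4.04 FPKM in H, against 0.18, 0.20 and 0.21 FPKM in NC (3.48, adjusted p = 4.96e-06).

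**Figure D3:**
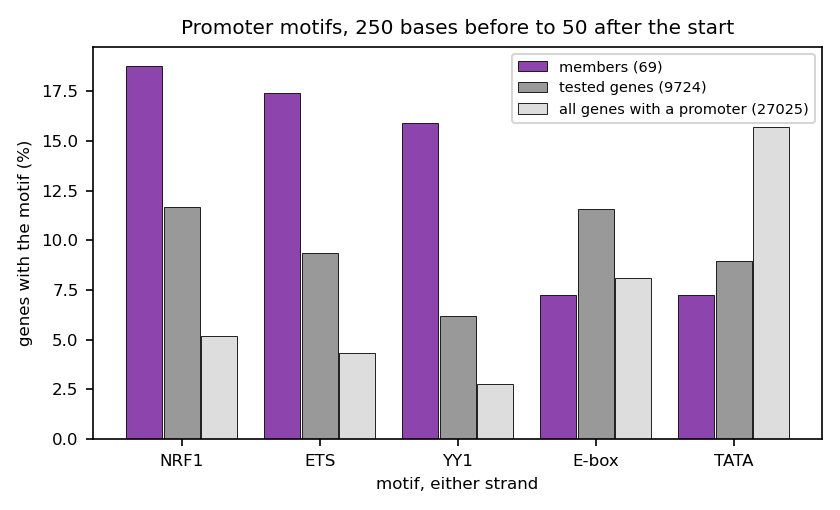
Share of genes (%) whose promoter window holds each motif on either strand, for the members, for tested genes and for all genes with a window. NRF1, ETS and YY1 letters were in 15.9% to 18.8% of members and in 6.21% to 11.7% of tested genes, while the E-box and TATAAA were each in 7.25% of members.

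Both subunits were lower in H. Of the 51 large subunit members 36 fell and 5 rose, and of the 26 small subunit members 18 fell and 1 rose. The large subunit genes summed to 2525, 2325 and 2467 FPKM in H, against 3327, 3331 and 3320 FPKM in NC, and the small subunit genes to 1222, 1038 and 1143 FPKM in H, against 1360, 1372 and 1383 FPKM in NC. The ratio of the large to the small sum was 2.16 ± 0.086 in H and 2.42 ± 0.023 in NC (SD, n = 3 each), and no H value reached an NC value (exact permutation p = 0.1, the smallest possible). A few genes made up most of this gap. Without Mrps6 the ratio was 2.48, 2.54 and 2.51 in H, against 2.62, 2.59 and 2.57 in NC, which still did not overlap (exact permutation p = 0.1). Without Mrps6, Mrpl14, Mrpl33, Mrpl42 and Mrpl52 it was 1.88, 1.87 and 1.85 in H, against 1.90, 1.89 and 1.85 in NC, and the groups overlapped (exact permutation p = 0.5). These genes were picked after seeing the data, for their large changes. By the classes of origin, 37 of the 46 members with a bacterial homolog fell and 2 rose, and 17 of the 31 members specific to mitochondria fell and 4 rose. Mrps18a is 1 of these 4, so the counts of rises depend on how the Mrps18 paralogs are classed. None of these paralogs was called lower, so the counts of falls do not depend on it.

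The paralogs Mrps18a, Mrps18b and Mrps18c, which descend from bacterial S18 and take different places in the ribosome, had unlike values, and the differences between their changes were not tested. Mrps18a rose in H, as given above. Mrps18b had 63.4, 45.0 and 53.7 FPKM in H, against 48.3, 51.6 and 54.2 FPKM in NC (0.06, adjusted p = 0.647), and the groups overlapped. Mrps18c had 87.1, 82.1 and 85.7 FPKM in H, against 89.8, 87.3 and 95.3 FPKM in NC (-0.09, adjusted p = 0.158). Mrps36, the member outside the ribosome, fell with the majority (-0.57, adjusted p = 0.0013).

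Liraglutide was followed by a mixed response. Compared with the H group, 22 of the 78 members were up-regulated and 12 were down-regulated in the HL group, where 26.7% of all tested genes were higher and 21.7% lower. The share of members that rose (28.2%) was near that of all genes. No member passed the fold threshold in either direction, against 3.55% of all tested genes higher and 5.83% lower, and none did at an unadjusted p. The median log2 fold change was 0.07 over the members and 0.04 over all tested genes. On the TPM scale the direction of the median turned to -0.03, with 8 members higher and 21 lower. Rescaling lowered other lists as well, such as the oxidative phosphorylation subunits (median 0.26 on the FPKM scale and 0.16 on the TPM scale). The downward shift was therefore not particular to the members. The percentages of all tested genes above do not apply to these TPM counts. The lower count was 20 without H replicate 2 and 7 without HL replicate 1. The summed level was 3695, 3705 and 3709 FPKM in HL, against 3796, 3407 and 3647 FPKM in H, and the groups overlapped (ratio 1.02, exact permutation p = 0.7). H replicate 2 was the lowest of the H libraries for 55 members (70.5%, against 41.1% of all tested genes).

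This comparison shares the H libraries with the one above, so the values of each are given side by side. Mrps33 had 43.7, 40.8 and 42.3 FPKM in HL, against 31.4, 29.9 and 28.8 FPKM in H (0.49, SE 0.059, adjusted p = 0.000175). Mrpl42 had 130, 145 and 137 FPKM in HL, against 94.5, 103 and 108 FPKM in H (0.43, adjusted p = 0.000499). Mrpl13 had 118, 113 and 116 FPKM in HL, against 89.2, 86.1 and 91.3 FPKM in H (0.38, adjusted p = 0.000157). All HL libraries were above all H libraries in these genes, as the naming rule required (30.4% of all tested genes). Mrpl55 (0.46), Mrpl10 (0.36), Mrpl50 (0.35) and Mrpl24 (0.33) also rose. Mrps35 had the largest log2 fold change (0.57, adjusted p = 0.0376), but its HL libraries had 18.5, 18.8 and 28.7 FPKM, and without HL replicate 3 its change was 0.36 with an adjusted p of 0.119. The call of Mrps35 was also lost without H replicate 2 or H replicate 3, and that of Mrpl24 without HL replicate 1 or HL replicate 2. Both calls were also lost on the TPM scale (0.47 for Mrps35, adjusted p = 0.0747, and 0.24 for Mrpl24, adjusted p = 0.0966). Mrpl52 (0.11, adjusted p = 0.158), Mrpl18 (0.12, adjusted p = 0.0852) and Mrpl12 (0.02, adjusted p = 0.878) were not called in HL against H, with log2 fold changes in H against NC of -0.89 for Mrpl52, -0.79 for Mrpl18 and -0.61 for Mrpl12.

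The 12 members that were lower in HL than in H were led by Mrpl14. It had 99.3, 99.7 and 108 FPKM in HL, against 232, 163 and 202 FPKM in H (-0.94, SE 0.111, adjusted p = 0.000158). Mrps6 had 107, 108 and 103 FPKM in HL, against 204, 124 and 160 FPKM in H (-0.59, adjusted p = 0.00874). Mrps18a had 46.1, 43.5 and 44.2 FPKM in HL, against 67.3, 55.3 and 61.2 FPKM in H (-0.45, adjusted p = 0.000753). The HL libraries of Mrpl14 and Mrps18a overlapped the NC libraries, and those of Mrps6 were all below the lowest H library. Groups of HL and H without overlap were part of the naming rule, and 24.9% of all tested genes were lower in that way. Mrpl45 (-0.33) and Mrpl39 (-0.32) fell as well, while Mrpl44 had -0.19 (adjusted p = 0.0938) and was called on the TPM scale (-0.28, adjusted p = 0.0191). The call of Mrpl45 was lost without HL replicate 1, HL replicate 3 or H replicate 3 (adjusted p = 0.0558, 0.0533 and 0.0513), and that of Mrpl39 without HL replicate 1 or H replicate 3. Mrpl39 also lost its call in limma with weights for the variance of each group (adjusted p = 0.0811). The other 7 were Mrpl57 (-0.41), Mrps34 (-0.39), Mrps30 (-0.37), Mrps25 (-0.36), Mrpl46 (-0.33), Mrps31 (-0.23) and Mrpl53 (-0.22). Mrps34 had 30.2, 30.5 and 33.2 FPKM in HL and 46.0, 36.5 and 40.9 FPKM in H, against 39.6, 38.5 and 40.7 FPKM in NC. The call of Mrps25 in HL against H was lost without HL replicate 2.

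With liraglutide, most members were still below the control. Compared with the NC group, 55 members were down-regulated and 0 up-regulated in the HL group, against 27.2% and 21.6% of all tested genes, and the median log2 fold change was -0.31 over the members and -0.04 over all tested genes. At an unadjusted p under 0.05 the limma counts were 57 lower and 0 higher. No member passed the fold threshold, against 2.41% of all tested genes lower and 6.3% higher. Mrps6 was the member nearest to a rise (0.26, adjusted p = 0.167), and it was called when only the HL and NC libraries were fitted (adjusted p = 0.00117) or when H replicate 1 or H replicate 2 was left out of the common fit (adjusted p = 0.0317 and 0.0293). The summed level was 3695, 3705 and 3709 FPKM in HL, against 4751, 4772 and 4763 FPKM in NC (ratio 0.778, exact permutation p = 0.1, the smallest possible), and every HL library was below every NC library. On the TPM scale 40 members were lower, none was higher, and the ratio was 0.832. No share of all tested genes on that scale is given beside these counts. The largest falls were in Mrpl52 (-0.79, adjusted p = 1.6e-05), Mrpl54 (-0.76), Mrpl49 (-0.73), Mrpl18 (-0.67), Mrps25 (-0.67), Mrps26 (-0.67), Mrps28 (-0.64) and Mrpl42 (-0.60). Mrpl49 had 20.5, 23.0 and 21.4 FPKM in HL and 25.5, 21.1 and 23.2 FPKM in H, against 36.6, 36.2 and 34.6 FPKM in NC. Its HL and H libraries overlapped, and both lay below NC.

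By group means, 42 of the 78 members were lowest in H and highest in NC with HL between them, 22 were lowest in HL and highest in NC, 10 were lowest in HL and highest in H, 3 were lowest in NC and highest in H, and 1 was lowest in H and highest in HL. The gene of the last kind was Mrpl37. These orders were not counted over all tested genes, so the counts do not show a trait particular to the members. Mrpl30, the homolog of bacterial L30, is an example of the first kind. It had 132, 135 and 134 FPKM in HL and 101, 111 and 108 FPKM in H, against 140, 152 and 141 FPKM in NC. Its HL libraries were all below its NC libraries, as in 36.3% of all tested genes. Mrpl30 was not called in HL against NC (-0.11, adjusted p = 0.114). The 8 members Mrpl1, Mrpl19, Mrpl23, Mrpl37, Mrpl38, Mrpl43, Mrps2 and Mrps18b had no call in any comparison. A missing call does not show that they were equal.

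The other parts of the mitochondrial translation machinery differed by list, where 33% of all tested genes were lower and 27.1% higher in H than in NC. All 5 ribosome subunits with another symbol fell in H compared with NC (Aurkaip1, Chchd1, Dap3, Gadd45gip1 and Ptcd3). Chchd1 had 76.2, 76.97 and 87.0 FPKM in H, against 127, 122 and 128 FPKM in NC (-0.65, adjusted p = 3.93e-05). Of 13 translation factors 8 fell and none rose. Pdf, which removes the formyl group from new proteins, had -0.80, and the elongation factor gene Gfm1 had -0.57. Of 20 genes that charge mitochondrial tRNAs 12 fell and 1 rose, with -0.86 for Rars2. Among 30 assembly and RNA factors, the longest of these lists, 7 fell and 6 rose (median -0.06). These included a fall of Tfb1m, which methylates the small subunit rRNA (-1.04, adjusted p = 0.000103), and a rise of Ddx28, a helicase of large subunit assembly (1.13, adjusted p = 4.98e-05). On the TPM scale the other-symbol subunits had 3 falls, the translation factors 3 falls and 2 rises, and the tRNA genes 9 falls and 1 rise. The assembly and RNA factors then had 5 falls and 10 rises, and their median turned to 0.13. In HL, Rars2 had 21.6, 19.3 and 23.9 FPKM, against 9.34, 11.3 and 11.1 FPKM in H (1.02, adjusted p = 6.24e-05).

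The mRNAs that the mitochondrial ribosome translates had no call for a fall. Of 13 mitochondrially encoded mRNAs, none was lower and only mt-Nd3 was higher in H than in NC (0.47, adjusted p = 0.0103), and their median log2 fold change was 0.08. Over all tested genes, 33% were lower and 27.1% higher in H than in NC. In HL compared with NC 5 of the 13 were higher (38.5%, against 21.6% of all tested genes) and none lower (against 27.2%). In HL compared with H 3 were higher (23.1%, against 26.7% of all tested genes) and none lower (against 21.7%). On the TPM scale 4 were higher in H than in NC and 7 in HL than in NC. Together the mitochondrially encoded genes held 9.19% to 11.4% of all FPKM in HL, 7.24% to 9.47% in H and 6.48% to 7.28% in NC. The rRNA mt-Rnr2 of the large subunit had 252, 228 and 225 FPKM in HL, 494, 825 and 648 FPKM in H and 335, 352 and 333 FPKM in NC. It was higher in H than in NC (0.92, adjusted p = 0.000616) and lower in HL than in H (-1.45, adjusted p = 7.6e-05). The small subunit rRNA mt-Rnr1 had 134, 119 and 133 FPKM in HL, 209, 985 and 1099 FPKM in H and 285, 274 and 277 FPKM in NC, so its H libraries lay on both sides of NC. The libraries were enriched for mRNA, so the rRNA values are what that step left.

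Lists of other nuclear genes were set beside the members. Of 76 oxidative phosphorylation subunits, 72 were lower in H than in NC (median -0.52), and of 76 cytosolic ribosomal proteins 70 were lower and 1 higher (median -0.64). In HL compared with H, 56 oxidative phosphorylation subunits rose and none fell (median 0.26), and 60 cytosolic ribosomal proteins rose and 1 fell (median 0.27), while 22 members rose and 12 fell (median 0.07). On the TPM scale the medians in HL against H were 0.16 for oxidative phosphorylation, 0.18 for cytosolic ribosomal proteins and -0.03 for the members, and those in H against NC were -0.32 for oxidative phosphorylation, -0.45 for cytosolic ribosomal proteins and -0.24 for the members. The gap between the lists can be read within each library, where the total FPKM barely enters. The mean log2 level of the members minus that of the oxidative phosphorylation subunits was -2.03, -2.08 and -2.08 in HL, -1.73, -1.90 and -1.84 in H and -2.003, -1.98 and -1.99 in NC. Every HL library was thus below every H library (difference -0.24), and every H library was above every NC library (difference 0.17). Against the cytosolic ribosomal proteins the difference was -0.24 for HL against H, with every HL library again below every H library, and 0.25 for H against NC. Each of these 4 contrasts had an exact permutation p of 0.1, the smallest that 3 against 3 libraries can give. HL differed from NC by -0.07 against oxidative phosphorylation subunits (p = 0.1) and by 0.0039 against cytosolic ribosomal proteins (p = 0.9, exact permutation test).

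**Figure D4:**
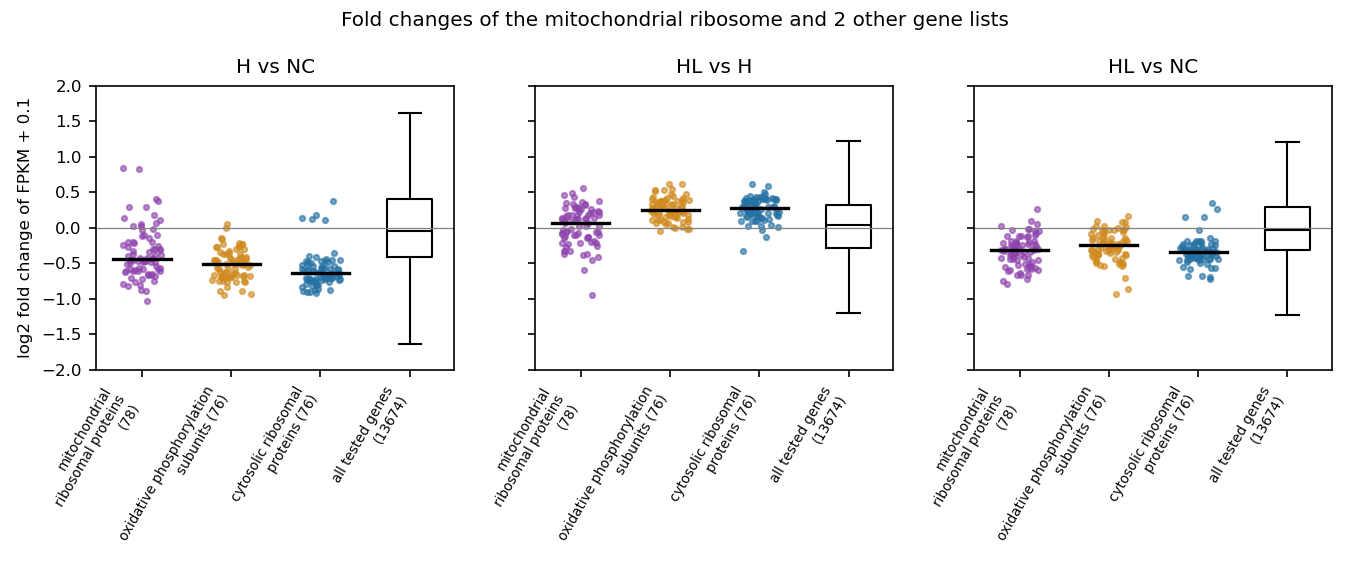
Log2 fold changes of the members, of oxidative phosphorylation subunits, of cytosolic ribosomal proteins (points are genes, bars are medians) and of all tested genes (box of quartiles with whiskers to 1.5 times the box, outliers not drawn) in the 3 comparisons. The members lie below 0 in H against NC, are spread around 0 in HL against H, where the other lists lie above 0, and lie below 0 in HL against NC.

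Many members start next to another gene on the opposite strand. In GENCODE M21, 37 members had such a head-to-head gene within 1000 bases of their start, and for 33 the partner was tested. The pair Mrpl46 and Mrps11 consists of members and is counted from both sides. In the 23 pairs whose member was lower in H than in NC, the partner was lower in 12, higher in 3 and not called in 8. Over all 33, 13 partners were lower and 7 higher, against 33% and 27.1% of all tested genes. The largest falls among the partners were those of Eme1, Ska3, Ncapd2 and Mtbp. Eme1, a subunit of a DNA repair nuclease next to Mrpl27, had 2.17, 1.75 and 2.82 FPKM in H, against 8.53, 10.2 and 11.4 FPKM in NC (-2.13). Ska3, of the kinetochore, next to Mrpl57, had a log2 fold change of -1.58 while Mrpl57 had -0.03 (adjusted p = 0.834). Ncapd2, a condensin subunit next to Mrpl51, had -1.53, and Mtbp next to Mrpl13 had -1.31. Mrpl13 and Mtbp share up to 330 exon bases and Mrpl27 and Eme1 up to 75. Of the members that rose in H, Mrpl14 shares up to 106 exon bases with Tmem63b (0.46) and Mrpl44 up to 126 with Wdfy1 (0.35). The sources used here do not say that the counting used strand, so reads of such shared stretches cannot be told apart. Klc4 next to Mrpl2 rose (0.86) while Mrpl2 fell (-0.47), and no exon overlap is annotated for that pair.

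**Figure D5:**
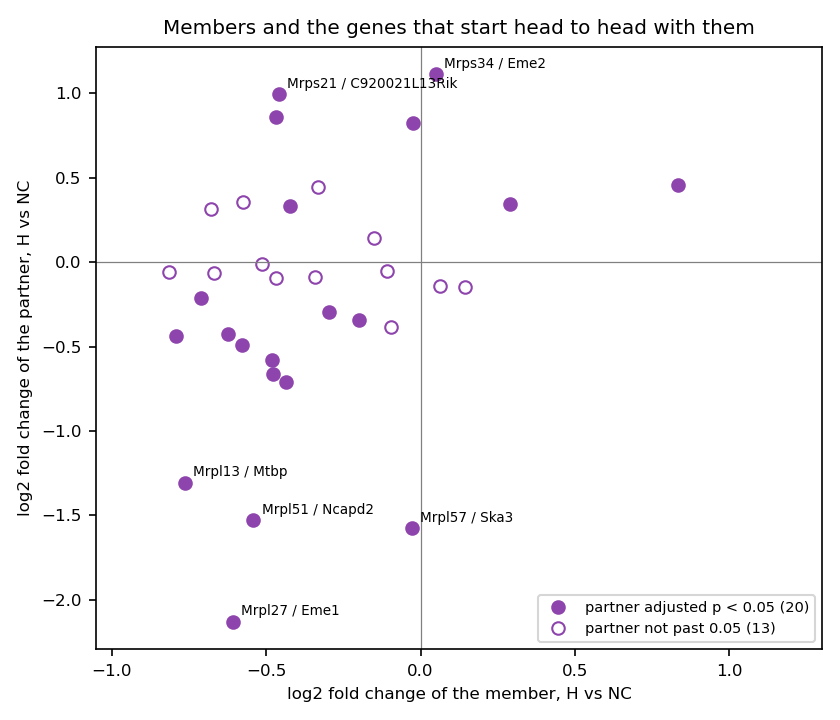
Log2 fold change in H against NC of each member (horizontal axis) and of the gene that starts head to head with it (vertical axis), for 33 pairs. Filled points mark the 20 partners with an adjusted p under 0.05. Eme1, Ska3, Ncapd2 and Mtbp lie at -1.31 or below, beside members between -0.76 and -0.03, and Mrpl14 with Tmem63b (0.46) is the point farthest to the right.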

How the data were processed

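The authors enriched mRNA, sequenced it on an Illumina HiSeq, trimmed the reads, aligned them with HISAT2 2.1.0 and quantified them with StringTie 1.3.3b, and deposited FPKM per gene and library. The sources differ in the quantifier and the genome that they name, so coordinates are given only for RefSeq promoters, on their own build. FPKM are scaled to mapped fragments and length, so no count test was used. Values were tested as log2(FPKM + 0.1), which understates changes of low genes, with limma 3.58.1 (variance trend, robust, statmod 1.5.0, R 4.3.3) in 1 fit of 9 libraries over 13674 genes with at least 1 FPKM in at least 3 libraries. Single values were compared by exact permutation tests (SciPy 1.17.1). Genes named are members called at the fold threshold, filled to 8 per direction by the largest called changes without overlap of groups, the 5 highest and 5 lowest by level, the Mrps18 paralogs, Mrps36, Mrpl12, neighbours, and 2 to 4 genes per list. Other genes, such as Mrpl49, Mrpl30 and those that complete a small count, were named after their values were seen. The members and lists were chosen with earlier results of these data known. The fit was tested on simulated data, in which all libraries of a gene had the same spread. In the real data the median SD of the log2 values was 0.0865 in HL, 0.171 in H and 0.0723 in NC. The simulation therefore does not test the fit under unequal spread. Fragments were estimated from FPKM steps of 6982 genes with 1 transcript over 1500 bases, of which 99.5% to 99.9% of low values lay within 0.1 of a whole number.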

Additional observations from a re-analysis of the deposited data

How the results depend on the processing

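The pseudocount (1 or 0.01), the filter (none or a mean FPKM of 5), median centring, weights for the variance of each group, limma without its robust option, a fit restricted to the compared groups, and the omission of single libraries were tried beside rescaling to TPM, which moved the most values. On the TPM scale H against NC had 11 members higher and 40 lower, 2 higher and 0 lower past the fold threshold, a median of -0.24 and a sum ratio of 0.868. HL against H then had 8 higher and 21 lower, 1 lower past the fold threshold, a reversed median of -0.025 and a sum ratio of 0.958. The medians of other lists in HL against H moved down too, as given above. HL against NC had a median of -0.22 and a sum ratio of 0.832. The cause was not tested beyond the totals given above. With 1 library left out, members higher and lower past the fold threshold in H against NC numbered 0 to 1 each, members lower in HL against H numbered 7 to 20 and past the fold threshold 0 to 1, and members higher in HL against NC numbered 0 to 1. That last count was also 1 with variance weights and with only the compared groups, each time through Mrps6. Added after seeing the data, the HL to NC sum ratio was 0.801 without the 5 most abundant members. The difference in the large to small ratio without Mrps6 was -0.0805 for H against NC, 0.0105 for HL against H and -0.0699 for HL against NC, and without Mrps6, Mrpl14, Mrpl33, Mrpl42 and Mrpl52 it was -0.0119 for H against NC and reversed to 0.0296 for HL against NC. The same replicate numbers did not pair the libraries (correlations of -0.037 to 0.091). With a replicate block 55 members were lower and 6 higher in H against NC. With weights for the variance of each group, 50 members were lower and 5 higher in H against NC. The same weights gave 17 members higher and 9 lower in HL against H. Over the named members and their settings, 59 values lost a call, 32 gained 1 and none changed sign past the threshold. The estimated depth was at least 100 fragments in every library for 74 members, and 26.1 to 60.9 fragments for Mrpl23, where only large changes can be seen. For the members, fewer bases were subtracted from the transcript length than the 240 to 290 bases fitted per library. These estimates therefore run high, most for short transcripts, and the 74 may be too many.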
